A study of Homo sapiens with 6 samples.

Results

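The transcripts of the mitochondrial genome were examined in HCT116, an established human colorectal carcinoma cell line, in 3 libraries from cells given a control siRNA (control libraries) and 3 from cells given siRRN3 siRNA (siRRN3 libraries). Both groups grew in McCoy's 5a medium with 10% FBS, and no other agent is named. RRN3 encodes an initiation factor of RNA polymerase I, which transcribes the nuclear ribosomal RNA genes. The labels call the RNA poly(A) RNA and also describe Ribo-Zero removal of rRNA, and name neither dose nor time after transfection. Members were all rows of the deposited expression table whose symbol starts with MT-, which gave 37 of 25662 rows: 13 protein-coding, 2 rRNA and 22 tRNA rows. Values are TPM, a length-scaled abundance relative to all transcripts of a library, so levels are given per length, and those of short genes such as MT-ATP8 and the tRNAs are less certain. RRN3 itself was at 20.9, 14.7 and 14.1 TPM in the control libraries and 2.7, 1.22 and 0.925 TPM in the siRRN3 libraries (log2 change -2.79, SE 0.27, limma adjusted p = 0.000301), and the groups did not overlap, so some RRN3 mRNA remained. The epithelial markers EPCAM, KRT8, KRT18, KRT19 and CDH1 were present in every library. Of these 5, KRT8, KRT18 and KRT19 rose with siRRN3 (log2 changes 1.20, 1.19 and 1.01, limma adjusted p = 0.000134, 8.83e-05 and 0.000156), and their part in the results was not tested. Among markers of other cell types, COL1A1 alone, of COL1A1, COL1A2, PECAM1, CDH5 and ALB, passed a mean of 1 TPM.

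Mitochondrial DNA is a small circle that is transcribed from both strands by its own polymerase, POLRMT, with the factors TFAM and TFB2M. Long precursor RNAs are cut, mostly at the tRNAs that lie between the longer genes, into mRNAs, rRNAs and tRNAs. The transcript made from the heavy-strand promoter carries both rRNAs, 12 protein-coding genes and 14 tRNAs, while the light-strand transcript carries MT-ND6 and 8 tRNAs. The mRNAs encode core subunits of respiratory complexes I, III, IV and V, and mature mRNAs and rRNAs differ widely in stability.

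A few stretches of the reference sequence bear directly on how these values are read (GENCODE release 29, GRCh38, written as DNA, 5′ to 3′, and not read from the HCT116 libraries). The first is the 46-base overlap of MT-ATP8 and MT-ATP6 at chrM:8527-8572 on the plus strand, with the start codon of MT-ATP6 and the stop codon of MT-ATP8 in capitals. The second is the junction of MT-ND4L and MT-ND4 at chrM:10740-10786, plus strand, with the 7 shared bases in capitals. Reads from these stretches can be assigned to either gene, and each pair is carried on 1 mature mRNA. The tRNA genes that follow are shown with the anticodon in capitals: MT-TL1 (chrM:3230-3304, plus strand), which separates MT-RNR2 from MT-ND1, the minus-strand block MT-TA (chrM:5587-5655), MT-TN (chrM:5657-5729), MT-TC (chrM:5761-5826) and MT-TY (chrM:5826-5891) between MT-ND2 and MT-CO1, and MT-TS1 (chrM:7446-7514, minus strand) between MT-CO1 and MT-CO2. MT-TA and MT-TS1 have the same length, 69 bases, and their ratio differed between the groups.
MT-ATP8/MT-ATP6 overlap: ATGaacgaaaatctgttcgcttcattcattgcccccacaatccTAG
MT-ND4L/MT-ND4 junction: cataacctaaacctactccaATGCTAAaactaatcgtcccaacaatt
MT-TL1: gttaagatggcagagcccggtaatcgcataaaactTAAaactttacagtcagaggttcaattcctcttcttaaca
MT-TA: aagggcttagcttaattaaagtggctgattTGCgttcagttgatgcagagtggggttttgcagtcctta
MT-TN: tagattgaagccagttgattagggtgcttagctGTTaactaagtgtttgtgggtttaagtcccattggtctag
MT-TC: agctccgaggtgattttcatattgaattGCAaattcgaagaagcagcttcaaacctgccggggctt
MT-TY: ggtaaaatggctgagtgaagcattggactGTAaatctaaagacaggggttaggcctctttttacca
MT-TS1: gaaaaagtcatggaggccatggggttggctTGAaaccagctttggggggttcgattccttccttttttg

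Mitochondrial transcripts made up a large part of all TPM in these libraries. Their summed TPM was 230723, 255029 and 253727 in the control libraries and 265148, 290780.0 and 285501 in the siRRN3 libraries, which is 24.9% ± 1.37 and 28.3% ± 1.35 of the table (SD, n = 3 per group). Every siRRN3 library lay above every control library, by a ratio of group means of 1.14. In both groups the library numbered 1 had the lowest sum. The protein-coding rows accounted for 229243 ± 13603 and 255147 ± 12080.2 TPM, a ratio of 1.11. The 2 rRNA rows accounted for 7258 ± 141 and 11118 ± 141 TPM, a ratio of 1.53, and the 22 tRNA rows for 9992 ± 1274 and 14211 ± 1663 TPM, a ratio of 1.42. All 3 sums were thus higher with siRRN3 without overlap between groups, and the ratio was largest for the rRNA sum. The sums are descriptions and were not tested. Because TPM is relative, more mitochondrial RNA per cell and less of other RNA per cell cannot be told apart.

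Each row was tested with limma on log2(TPM + 1) over all 12157 genes with a mean of at least 1 TPM, with Benjamini-Hochberg adjustment over all of them and a threshold of 0.05. This included 36 of the 37 mitochondrial rows, since MT-TG, the glycine tRNA, was listed at 0 in every library. Of these 36, 10 rose and 0 fell, against 11.2% and 19% of all genes tested, 30.3% in either direction. The 10 were MT-RNR1, MT-RNR2, MT-ND1, MT-ND2, MT-ND5, MT-ND6, MT-CYB, MT-TA, MT-TY and MT-TT. With limma, 0 rows were lower at an unadjusted p under 0.05. The median log2 change of the 36 rows was 0.30, beside -0.048 over all genes tested. The groups did not overlap for 13 of the 36 rows, in each case with siRRN3 higher, against 17.9% of all genes higher and 26.9% lower without overlap. MT-RNR1, MT-RNR2, MT-ND1 and MT-TA stayed past the threshold under each of the 18 alternative settings run, whereas the other 6 calls each ended under some of them, as given with each row.

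**Figure D1:**
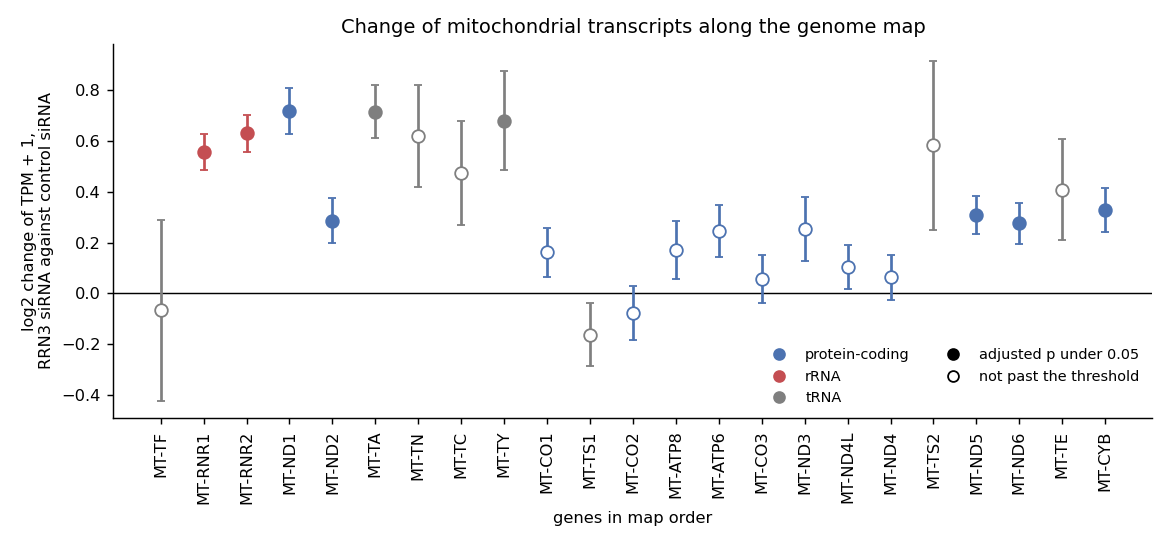
Log2 change of TPM + 1 with RRN3 siRNA against control siRNA (y axis, points with SE from limma, n = 3 per group) for genes in map order (x axis), with tRNA rows of at least 100 TPM on average. Filled points passed an adjusted p of 0.05; MT-RNR1, MT-RNR2, MT-ND1 and MT-TA lie between 0.56 and 0.72, and MT-CO2 and MT-TS1 lie below 0 without passing.

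Both rRNAs of the mitochondrial ribosome rose. MT-RNR1 (ENSG00000211459, chrM:648-1601), the 12S rRNA of the small subunit, was at 1517, 1373 and 1515 TPM in the control libraries and 2194, 2095 and 2187 TPM in the siRRN3 libraries. The siRRN3 libraries were all higher than the control libraries, and the level rose 1.47-fold (log2 change 0.56, SE 0.072, limma adjusted p = 0.00101). MT-RNR2 (ENSG00000210082, chrM:1671-3229), the 16S rRNA of the large subunit, was at 5853, 5726 and 5790.3 TPM in the control libraries and 9087, 8948 and 8843 TPM in the siRRN3 libraries. It rose 1.55-fold (log2 change 0.63, SE 0.071, limma adjusted p = 0.000592), and the groups lay far apart relative to the spread within them. The ratio of MT-RNR2 to MT-RNR1 was 3.86, 4.17 and 3.82 in the control libraries and 4.14, 4.27 and 4.04 in the siRRN3 libraries, so the groups overlapped in this ratio. Per the labels, ribosomal RNA was removed from these libraries with Ribo-Zero, so what remained of both rRNAs may depend on removal as well as on level, which was not tested. RNA5-8SN2, a cytosolic 5.8S rRNA row, was at 233, 193 and 0 TPM in the control libraries and 213, 231 and 254 TPM in the siRRN3 libraries. A second 5.8S rRNA row was at 0, 0 and 195 TPM in the control libraries and 0, 27.5 and 0 TPM in the siRRN3 libraries, above 0 in the 1 control library where RNA5-8SN2 was at 0, so neither row alone gives the level of this RNA.

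MT-ND1 (ENSG00000198888, chrM:3307-4262), a membrane subunit of complex I whose gene follows MT-RNR2 and MT-TL1, rose most of the mRNAs. It was at 3431, 3983 and 3917 TPM in the control libraries and 5809.9, 6271 and 6523 TPM in the siRRN3 libraries. The lowest siRRN3 library lay well above the highest control library, and the rise was 1.64-fold (log2 change 0.72, SE 0.090, limma adjusted p = 0.000929). In control libraries MT-ND1 had the lowest level of the 13 protein-coding rows per length, and in siRRN3 libraries it lay above MT-ND5 in every library. The ratio of MT-ND1 to MT-ND2, the next mRNA of the map, was 0.674, 0.702 and 0.678 in control and 0.928, 0.919 and 0.92 in siRRN3 libraries. The ratio of MT-RNR2 to MT-ND1 was 1.71, 1.44 and 1.48 and 1.56, 1.43 and 1.36. MT-ND1 thus separated from its downstream neighbour without overlap, while its ratio to the upstream rRNA overlapped between the groups. MT-TL1, the leucine tRNA that lies between them, was at 35.5, 20.4 and 42.8 TPM in the control libraries and 29.6, 36.5 and 75.8 TPM in the siRRN3 libraries, with overlapping groups and an adjusted p of 0.406. Without both libraries numbered 1, where 20 mitochondrial rows rose, MT-TL1 passed as well (log2 change 0.81, limma adjusted p = 0.0245).

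**Figure D2:**
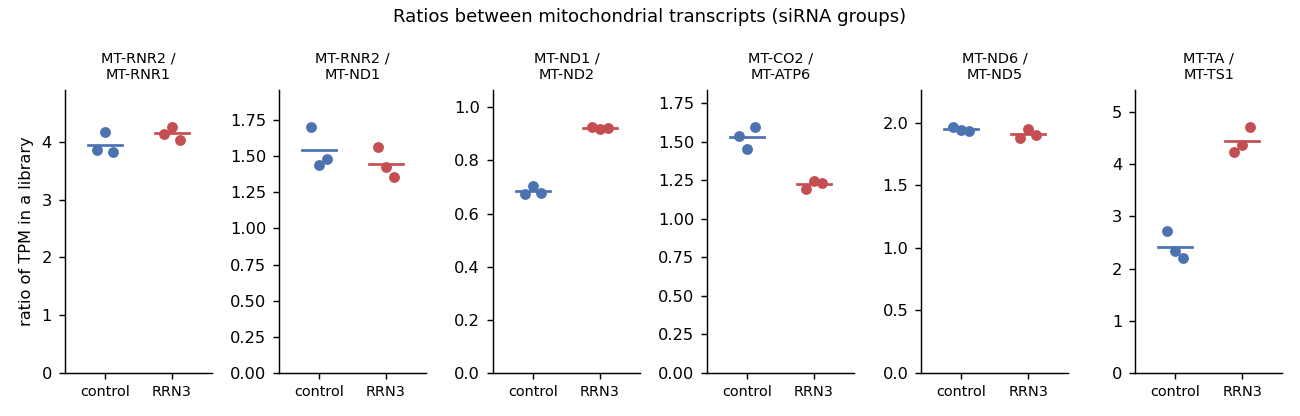
Ratios of TPM between pairs of mitochondrial transcripts (y axes from 0) in each library of the control siRNA and RRN3 siRNA groups (points, with the mean as a line, n = 3 per group). The groups are apart for MT-ND1 over MT-ND2, MT-CO2 over MT-ATP6 and MT-TA over MT-TS1, and overlap for MT-RNR2 over MT-RNR1, MT-RNR2 over MT-ND1 and MT-ND6 over MT-ND5.

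The other complex I subunits differed among themselves. MT-ND5 (ENSG00000198786, chrM:12337-14148), a proton-pumping subunit, was at 4142, 4553 and 4162 TPM in the control libraries and 5353, 5309 and 5225 TPM in the siRRN3 libraries, without overlap, and rose 1.24-fold (log2 change 0.31, SE 0.075, limma adjusted p = 0.0173). MT-ND6 (ENSG00000198695, chrM:14149-14673, minus strand), which is encoded on the opposite strand from the other mRNAs and is the 1 mRNA of the light-strand transcript, was at 8161, 8859 and 8067 TPM in the control libraries and 10047, 10355 and 9940.4 TPM in the siRRN3 libraries. Here too every siRRN3 library was above every control library, a rise of 1.21-fold (log2 change 0.28, SE 0.080, limma adjusted p = 0.0341). The ratio of MT-ND6 to MT-ND5 was 1.97, 1.95 and 1.94 in control and 1.88, 1.95 and 1.9 in siRRN3 libraries, so the groups overlapped in the ratio of the light-strand mRNA to its heavy-strand neighbour. The sources used here do not say that reads were assigned by strand, so reads from the strand opposite MT-ND6 cannot be told apart from its own. MT-ND2 (ENSG00000198763, chrM:4470-5511) was at 5093, 5676 and 5774 TPM in the control libraries and 6264, 6821 and 7088 TPM in the siRRN3 libraries, and rose 1.22-fold (log2 change 0.29, SE 0.089, limma adjusted p = 0.043).

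MT-ND3 (ENSG00000198840, chrM:10059-10404) was at 14313, 14238 and 16731 TPM in the control libraries and 15333, 18906 and 19927 TPM in the siRRN3 libraries, and siRRN3 library 1 lay within the range of the control libraries (limma adjusted p = 0.176). Without that library MT-ND3 passed (adjusted p = 0.0274). MT-ND4L (ENSG00000212907, chrM:10470-10766) and MT-ND4 (ENSG00000198886, chrM:10760-12137), which share 1 mRNA, had log2 changes of 0.10 and 0.063 with adjusted p of 0.409 and 0.641. Their ratio, MT-ND4 over MT-ND4L, was 0.69, 0.752 and 0.697 in control and 0.697, 0.674 and 0.707 in siRRN3 libraries, with overlap. The ratio of MT-ND4 to MT-ND5, by contrast, was 2.52, 2.64 and 2.77 in control and 2.17, 2.24 and 2.28 in siRRN3 libraries, without overlap. Thus, of 7 complex I rows, 4 rose, beside 11.2% of all genes tested, and 3 did not pass the test. MT-ND4L and MT-ND4, on 1 mRNA, are among these 3. The summed level of the 7 rows was 64251 ± 3119 TPM in control and 75273 ± 3649 TPM in siRRN3 libraries.

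MT-CYB (ENSG00000198727, chrM:14747-15887), the cytochrome b of complex III, was at 6191, 6761 and 6896 TPM in the control libraries and 7804, 8371 and 8735 TPM in the siRRN3 libraries. The groups did not overlap and the rise was 1.25-fold (log2 change 0.33, SE 0.086, limma adjusted p = 0.023). Removal of the GC trend of each library ended the calls of MT-ND2, MT-ND5, MT-ND6 and MT-CYB (limma adjusted p = 0.22, 0.0965, 0.167 and 0.121), as did scaling by median of ratios (adjusted p = 0.21, 0.128, 0.214 and 0.171), no variance trend (adjusted p = 0.088, 0.0512, 0.0715 and 0.0523), no filter on low values (adjusted p = 0.131, 0.0622, 0.138 and 0.0895) and leaving out siRRN3 library 2 (adjusted p = 0.171, 0.0953, 0.174 and 0.113) or control library 3 (adjusted p = 0.079, 0.0708, 0.127 and 0.0541). Without control library 1 or siRRN3 library 3 the calls of MT-ND2 (adjusted p = 0.104 and 0.135), MT-ND6 (adjusted p = 0.0736 and 0.0822) and MT-CYB (adjusted p = 0.0579 and 0.0823) ended, and without control library 2 that of MT-ND2 (adjusted p = 0.0717). Quantile normalization set the change of MT-ND6 to 0 and that of MT-CYB to -0.050, and gave MT-ND2 an adjusted p of 0.0635. Quantile normalization gives the highest-ranked rows of each library the same values by construction.

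None of the 3 cytochrome c oxidase (complex IV) mRNAs passed the test. MT-CO1 (ENSG00000198804, chrM:5904-7445), the catalytic subunit, was at 19836, 23259 and 20451 TPM in the control libraries and 24022, 23738 and 23125 TPM in the siRRN3 libraries, with control library 2 inside the range of the other group. MT-CO2 (ENSG00000198712, chrM:7586-8269), which receives electrons from cytochrome c, was at 28895, 32404 and 32662 TPM in the control libraries and 27202, 30487 and 31408 TPM in the siRRN3 libraries. The groups overlapped, and MT-CO2 was the 1 mRNA whose mean was lower with siRRN3 (log2 change -0.077, limma adjusted p = 0.637). MT-CO3 (ENSG00000198938, chrM:9207-9990) was at 22754, 25756 and 25162 TPM in the control libraries and 24869, 25828 and 25874 TPM in the siRRN3 libraries, also with overlap. The log2 changes of MT-CO1 and MT-CO3 were 0.16 and 0.057, with adjusted p of 0.259 and 0.695. The direction of MT-CO1 turned with quantile normalization (-0.045), and that of MT-CO3 with the GC trend removed (-0.012). The sum of the 3 mRNAs was 77060.0 ± 5077 TPM in control and 78851 ± 2395 TPM in siRRN3 libraries.

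The ATP synthase (complex V) rows, MT-ATP8 and MT-ATP6, lay higher with siRRN3 in every library but did not pass the test. MT-ATP6 (ENSG00000198899, chrM:8527-9207), the subunit that forms the proton channel with the c-ring, was at 18764, 22338 and 20418 TPM in the control libraries and 22791, 24488 and 25505 TPM in the siRRN3 libraries (log2 change 0.24, SE 0.10, limma adjusted p = 0.116). MT-ATP8 (ENSG00000228253, chrM:8366-8572) was at 56528, 63156 and 62743 TPM in the control libraries and 63818, 74571 and 66986 TPM in the siRRN3 libraries (log2 change 0.17, SE 0.12, limma adjusted p = 0.313), the highest level of any mitochondrial row in both groups. The 2 coding regions lie on 1 mRNA and overlap by the 46 bases shown above, yet MT-ATP8 was listed at 3.01, 2.83 and 3.07 times MT-ATP6 in the control libraries and 2.8, 3.05 and 2.63 times in the siRRN3 libraries. MT-ATP8 is 207 bases long and MT-ATP6 681, so these levels also depend on how the authors' software scaled short transcripts, which was not tested.

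**Figure D3:**
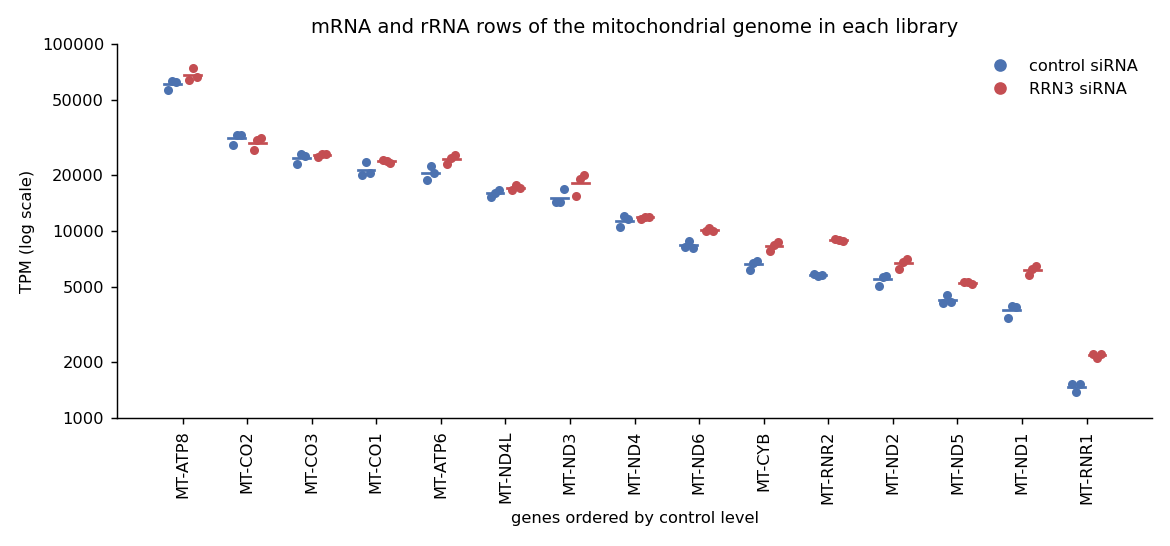
TPM (log scale) of the 13 mRNA and 2 rRNA rows in each library, ordered by the mean of the control siRNA group (points are libraries, lines are means, n = 3 per group). Levels span from 1373 TPM for MT-RNR1 to 74571 TPM for MT-ATP8, and MT-RNR1, MT-RNR2 and MT-ND1 show the widest gaps between the groups.

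The order of the mRNA levels per length was largely kept. In control libraries it ran from MT-ATP8 (60809 TPM) through MT-CO2 (31320.3), MT-CO3 (24558), MT-CO1 (21182), MT-ATP6 (20507), MT-ND4L (15887), MT-ND3 (15094), MT-ND4 (11331), MT-ND6 (8362), MT-CYB (6616), MT-ND2 (5514) and MT-ND5 (4286) to MT-ND1 (3777 TPM). Neighbours in this order had no overlapping libraries except MT-CO3 with MT-CO1, MT-CO1 with MT-ATP6, and MT-ND4L with MT-ND3. In the siRRN3 libraries the mean of MT-ATP6 lay above that of MT-CO1, and MT-ND3 above MT-ND4L, both with overlapping libraries. MT-ND1 lay above MT-ND5 without overlap and overlapped with MT-ND2.

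To ask which transcripts moved relative to the rest of the mitochondrial genome, each value was also taken as a share of the summed MT- TPM of its library. The same fit was then run over all 12157 genes after scaling every library to an equal mitochondrial sum, which by construction moves the median log2 change of all genes tested to -0.21. The shares of 5 rows rose, against 5.19% of all genes tested, and those of 2 fell, against 24.1% (29.3% in either direction). MT-ND1 went from 1.53% ± 0.0391 to 2.21% ± 0.0662 of the mitochondrial total (log2 change 0.53, SE 0.064, limma adjusted p = 0.000903). MT-RNR2 went from 2.35% ± 0.159 to 3.2% ± 0.197 (limma adjusted p = 0.0051), MT-RNR1 from 0.598% ± 0.0595 to 0.771% ± 0.0535 (limma adjusted p = 0.0209) and MT-TA from 2.02% ± 0.176 to 2.92% ± 0.16 (limma adjusted p = 0.0032). These 4 rows thus rose within the mitochondrial total as well as within the library. The share of MT-RNR1 passed in 11 of 16 alternatives, and ended without control library 2, control library 3 or siRRN3 library 3 (adjusted p = 0.0597, 0.0615 and 0.0559), with no trend (adjusted p = 0.0757) and with no filter on low values (adjusted p = 0.0556). The fifth was MT-TT, described with the tRNAs.

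The share of MT-CO2 fell, from 12.5, 12.7 and 12.9% in the control libraries to 10.3, 10.5 and 11% in the siRRN3 libraries (log2 change -0.26, SE 0.067, limma adjusted p = 0.0212). All siRRN3 libraries lay below all control libraries. That of MT-TS1, a serine tRNA whose gene lies between MT-CO1 and MT-CO2, fell from 0.842% ± 0.115 to 0.657% ± 0.0133 (limma adjusted p = 0.0328), again without overlap. The MT-CO2 call ended without both number-1 libraries, with no trend and with no filter on low values (adjusted p = 0.0916, 0.115 and 0.165), and without control library 1 or 3 or siRRN3 library 1 or 2 (adjusted p = 0.0507, 0.107, 0.0684 and 0.0973). The MT-TS1 call ended in 6 of 16 alternatives, with adjusted p up to 0.0985, among them scaling to the protein-coding rows alone (adjusted p = 0.0523) and leaving out control library 3, siRRN3 library 2 or siRRN3 library 3 (adjusted p = 0.0682, 0.0936 and 0.0871).

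The shares of MT-CO3 and MT-ND4 were also lower in all siRRN3 libraries, from 9.96% ± 0.124 to 9.11% ± 0.252 and from 4.59% ± 0.104 to 4.22% ± 0.144, but did not pass (adjusted p = 0.182 and 0.202). In all, 8 of 36 shares were higher and 4 lower without overlap, against 9.07% and 33.6% of all genes scaled the same way. Before scaling, the latter were 17.9% and 26.9%. The scaling itself thus lowers the background of higher genes and raises that of lower genes. Neither measures movement within the mitochondrial total. An exact two-sided permutation test of each share can reach no less than p = 0.1 with 3 against 3 libraries, and gave that value for each of these rows. The shares of MT-ND2, MT-ND5, MT-ND6 and MT-CYB, whose TPM rose, had adjusted p of 0.288, 0.282, 0.422 and 0.138. The shares of MT-ATP8 and MT-ATP6 overlapped between groups, going from 24.7% ± 0.143 to 24.4% ± 1.13 and from 8.31% ± 0.389 to 8.65% ± 0.26, as did MT-CO1, from 8.59% ± 0.53 to 8.44% ± 0.537. By class, the rRNA rows went from 2.95% ± 0.215 to 3.97% ± 0.247 of the mitochondrial total. The tRNA rows went from 4.06% ± 0.508 to 5.06% ± 0.375 and the protein-coding rows from 92.99% ± 0.63 to 90.97% ± 0.174. Among the latter, the complex IV mRNAs went from 31.3% ± 0.586 to 28.1% ± 0.585. The groups did not overlap in any of these shares.

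**Figure D4:**
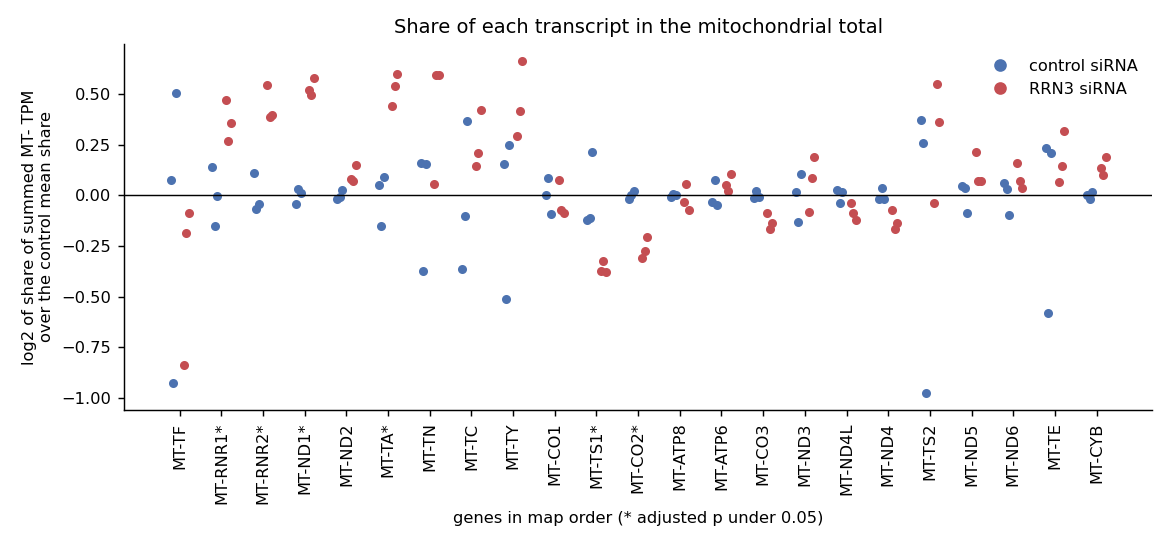
Share of each transcript in the summed MT- TPM of a library, as log2 of the share over the mean control share (y axis), for genes in map order (x axis, tRNA rows of at least 100 TPM on average; points are libraries, 3 per group). The RRN3 siRNA points of MT-RNR1, MT-RNR2, MT-ND1 and MT-TA lie above all control siRNA points, and those of MT-CO2 and MT-TS1 below them.

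The tRNA rows were dominated by tRNAs of the light-strand transcript. The 6 highest tRNA rows were MT-TA, MT-TS1, MT-TN, MT-TY, MT-TE and MT-TC, which carry alanine, serine, asparagine, tyrosine, glutamate and cysteine, and all 6 are encoded on the minus strand. The 8 light-strand tRNA rows summed to 9546 ± 1186 TPM in control and 13668 ± 1595 TPM in siRRN3 libraries, and the 14 heavy-strand tRNA rows to 446 ± 91.5 and 543 ± 71.9 TPM. Antisense sequence of these light-strand tRNAs is part of heavy-strand RNA, and without strand the 2 cannot be told apart. MT-TS1 begins at chrM:7446, the base after MT-CO1 ends at 7445. Its row, share and ratios may thus include reads of MT-CO1 RNA, which was not tested. A tRNA gene is also short for a library of fragmented and size-selected RNA, so these rows hold only the fragments that the authors' software assigned to so short a gene.

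MT-TA was at 4835, 4653 and 5467 TPM in the control libraries and 7282, 8551 and 8746 TPM in the siRRN3 libraries. All siRRN3 libraries were higher, and MT-TA rose 1.64-fold (log2 change 0.72, SE 0.10, limma adjusted p = 0.00179). Its neighbours in the same minus-strand block lay in the same direction. MT-TN was at 1143, 872 and 1251 TPM in the control libraries and 1221, 1942 and 1912 TPM in the siRRN3 libraries, where siRRN3 library 1 lay inside the control range (limma adjusted p = 0.0516). MT-TY was at 607, 424 and 713 TPM in the control libraries and 768, 919 and 1070.5 TPM in the siRRN3 libraries and rose without overlap (log2 change 0.68, SE 0.20, limma adjusted p = 0.0329). MT-TC was at 160.5, 212 and 293 TPM in the control libraries and 262, 299.8 and 341 TPM in the siRRN3 libraries, with overlap (adjusted p = 0.12). The block therefore showed higher means throughout, with 2 of its 4 rows past the threshold, beside 11.2% of all genes tested that rose. The MT-TY call ended with no trend or no filter (adjusted p = 0.0565 and 0.0876) and without control library 1 or 2 or siRRN3 library 2 or 3 (adjusted p = 0.0584, 0.0846, 0.0943 and 0.0813). MT-TN passed with a minimum mean of 5 TPM, quantile normalization or TPM rescaled without MT- rows (adjusted p = 0.049, 0.012 and 0.0351). MT-TC also passed without control library 3 (adjusted p = 0.0234). Without siRRN3 library 1, MT-TN and MT-TC passed (adjusted p = 0.00108 and 0.0464).

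MT-TS1, by contrast, was at 1783, 1984 and 2474 TPM in the control libraries and 1722, 1954 and 1851 TPM in the siRRN3 libraries, and MT-TE at 537, 337 and 580.3 TPM in the control libraries and 549, 636 and 705 TPM in the siRRN3 libraries. Both had overlapping groups and did not pass the test (adjusted p = 0.364 and 0.165). The ratio of MT-TA to MT-TS1 was 2.71, 2.35 and 2.21 in control and 4.23, 4.38 and 4.73 in siRRN3 libraries, so the groups did not overlap in the ratio of these light-strand tRNA rows of equal length. The ratio of MT-TA to MT-TN overlapped between the groups, at 4.23, 5.34 and 4.37 and 5.97, 4.4 and 4.57.

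The low tRNA values came in steps. In each library the 6 tRNA rows of 69 bases (MT-TV, MT-TI, MT-TA, MT-TS1, MT-TH and MT-TE) were whole multiples of 1 common value, within 0.01 of a step. That value was 6.1, 5.62 and 10.2 TPM in the control libraries and 6.78, 5.58 and 6.13 TPM in the siRRN3 libraries. Control library 3 thus had the coarsest steps. MT-TA held 792, 828 and 537 in control and 1074, 1532 and 1427 in siRRN3 libraries, whereas MT-TV, the valine tRNA row, held 8, 5 and 4 in control and 4, 6 and 11 in siRRN3 libraries. MT-TH, the histidine tRNA row, was at 1 step in 5 libraries and at 0 in control library 3. How many fragments a step stands for is unknown, but rows of a few steps are coarse measurements while MT-TA is not.

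MT-TT (ENSG00000210195, chrM:15888-15953), the threonine tRNA after MT-CYB, was at 6.98 TPM in control library 1, listed at 0 in the other two, and at 22.7, 25.5 and 8.05 TPM in the siRRN3 libraries. Its levels are thus of the size of a few such steps. It passed the test (log2 change 3.16, SE 0.81, limma adjusted p = 0.0209; with values at 0 this change depends on the pseudocount), and the call ended without control library 2, control library 3 or siRRN3 library 2 and with no filter on low values (adjusted p = 0.105, 0.0801, 0.075 and 0.0642). Its share passed as well (adjusted p = 0.0307), although the shares overlapped between groups, and ended under the same 4 alternatives (adjusted p = 0.105, 0.0983, 0.124 and 0.086). Of the other tRNA rows, 7 were above 0 in every library (MT-TF, MT-TV, MT-TL1, MT-TI, MT-TQ, MT-TM and MT-TS2), between 20.4 and 160.3 TPM. Their log2 changes were between -0.35 and 0.58, with adjusted p of at least 0.231. A further 7 (MT-TW, MT-TD, MT-TK, MT-TR, MT-TH, MT-TL2 and MT-TP) were listed at 0 in at least 1 library and reached at most 50.9 TPM, and none of them passed (adjusted p of at least 0.0772). Leaving out siRRN3 library 3 moved MT-TI and MT-TK past the threshold upward and MT-TP past it downward (adjusted p = 0.0333, 0.000146 and 0.000386), and leaving out control library 3 moved MT-TM past it upward (adjusted p = 0.016).

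Nuclear DNA holds copies of mitochondrial sequence, and reads can be split between a copy and its source. The table had 59 such rows, of which 8 reached a mean of 1 TPM. MTATP6P1 on chromosome 1 (633696 to 634376, GRCh38), 98.5% identical to MT-ATP6 over 681 aligned bases, was at 2559.7, 3532 and 2663 TPM in the control libraries and 3602, 3148 and 3212 TPM in the siRRN3 libraries. Its mean was 14.2% of that of MT-ATP6 in control and 13.7% in siRRN3 libraries. MTND2P28, at 62.4 and 65 TPM, was 1.13% and 0.967% of MT-ND2, and MTCO1P12, MTND1P23, MTCO3P12, MTCO2P12, MTATP8P1 and MTATP8P2 were each at or below 0.116% of their source. MTND1P23, a copy of part of MT-ND1, was at 3.74, 3.74 and 4.24 TPM in the control libraries and 5.03, 5.19 and 11.4 TPM in the siRRN3 libraries (adjusted p = 0.114). None of the 8 copies passed the test, though MTND1P23 did without siRRN3 library 1, MTATP6P1 without control library 2 and MTATP8P2 without siRRN3 library 2 (adjusted p = 0.0274, 0.0356 and 0.0271).

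Nuclear genes that make and handle mitochondrial RNA were called in both directions, at counts to be read against the 11.2% of all genes tested that rose and the 19% that fell. In the mitochondrial transcription list, 0 of 11 genes rose and 3 fell, with a median log2 change of -0.11 beside -0.048 over all genes tested, so its count of falls was close to the background. POLRMT, the polymerase, was at 70.7, 83.7 and 77 TPM in the control libraries and 57.4, 57.8 and 58 TPM in the siRRN3 libraries, without overlap, and fell (log2 change -0.41, SE 0.086, limma adjusted p = 0.00913). The ribosomal protein gene MRPL12, whose product also binds POLRMT, fell from 208 ± 23.3 to 150.2 ± 7.54 TPM, and MTERF3, a factor that binds near the promoters, from 10.9 ± 0.38 to 6.6 ± 1.65 TPM. TFAM, which packages mitochondrial DNA, was at 12.4, 10.4 and 10.3 TPM in the control libraries and 11.2, 7.46 and 6.07 TPM in the siRRN3 libraries, and TFB2M, which opens the promoters, at 7.93, 5.68 and 5.93 TPM in the control libraries and 14.9, 9.22 and 7.63 TPM in the siRRN3 libraries. Both overlapped between groups (adjusted p = 0.175 and 0.106), as did the elongation factor TEFM, at 2.98 and 4.77 TPM (adjusted p = 0.194). POLRMT and MRPL12 lost their calls with median-of-ratios scaling (limma adjusted p = 0.0825 and 0.0893) which moved TFB2M past the threshold upward (adjusted p = 0.012), while the GC correction moved TFAM past it downward and TFB2M upward (adjusted p = 0.0327 and 0.0277). TFAM also passed without siRRN3 library 1 and TFB2M without siRRN3 library 3 (adjusted p = 0.0111 and 0.0478). The MTERF3 call ended when any control library, siRRN3 library 2 or siRRN3 library 3 was left out (adjusted p = 0.0647, 0.0692, 0.0627, 0.0854 and 0.0583).

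Among genes of mitochondrial RNA processing, stability and decay, 2 of 23 rose and 2 fell (median log2 change 0.016), not above the 11.2% and 19% of all genes tested. HSD17B10 and PRORP encode subunits of the enzyme that cuts the 5′ end of mitochondrial tRNAs. HSD17B10 rose from 95.4 ± 7.18 to 145 ± 10.6 TPM and PRORP fell from 16.6 ± 0.716 to 11.4 ± 1.65 TPM. REXO2, an exonuclease that clears short RNA fragments, rose from 62.6 ± 6.66 to 98.8 ± 6.19 TPM, and TBRG4 (FASTKD4), an RNA-binding protein of mitochondria, fell from 192 ± 13.5 to 147 ± 12.3 TPM. LRPPRC, which stabilises mitochondrial mRNAs, was at 21.3, 12.4 and 16.6 TPM in the control libraries and 34.8, 18.6 and 14.1 TPM in the siRRN3 libraries, with wide spread within groups (adjusted p = 0.478). Of the RNA modification genes, 4 of 26 rose and 4 fell, near the same 11.2% and 19%. TRUB2, a mitochondrial pseudouridine synthase family member, rose from 30.1 ± 0.857 to 50.7 ± 1.45 TPM, and MRM3, which methylates the 16S rRNA, fell from 35.3 ± 1.23 to 26.1 ± 1.3 TPM. YRDC, needed for a modified base of tRNAs, rose from 59.2 ± 2.03 to 76.8 ± 1.17 TPM and PUSL1 fell from 29.5 ± 1.4 to 20 ± 0.841 TPM. The PRORP call ended without control library 1 or 2 or siRRN3 library 2 or 3 (adjusted p = 0.0652, 0.0631, 0.0876 and 0.0653). TBRG4 and MRM3 lost theirs with median-of-ratios scaling (limma adjusted p = 0.167 and 0.0598) and without siRRN3 library 2 (adjusted p = 0.0623 and 0.0633), and that of TBRG4 without control library 3 (adjusted p = 0.0533).

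Of the genes that replicate and maintain mitochondrial DNA, 3 of 22 rose and 7 fell (median log2 change -0.020), beside 11.2% and 19% of all genes tested. TWNK, the replicative helicase of mitochondria, rose from 36.8 ± 3.36 to 54.2 ± 2.66 TPM, and TYMP, thymidine phosphorylase, from 17.2 ± 2.91 to 33.2 ± 1.05 TPM. FEN1, a flap nuclease shared with the nucleus, fell from 128 ± 15.1 to 37.2 ± 3.68 TPM, and ATAD3B, a membrane ATPase, from 71.7 ± 3.33 to 50.6 ± 0.76 TPM. Mitochondrial DNA itself was not measured.

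The nuclear-encoded partners of the mitochondrial mRNAs fell more often than they rose. For complex I, 2 of 37 nuclear subunit genes rose and 9 fell, with NDUFS3 going from 150.1 ± 6.81 to 91.5 ± 7.9 TPM and NDUFB10 from 257 ± 15.5 to 179 ± 5.07 TPM. NDUFV1, which binds NADH, fell from 154 ± 10 to 115 ± 1.67 TPM and NDUFA8 from 159 ± 4.35 to 121 ± 7.4 TPM. For complex III the counts were 1 up and 4 down of 9, with CYC1, cytochrome c1, going from 499 ± 32.6 to 313 ± 20.5 TPM. UQCRFS1, the Rieske protein, fell from 78.2 ± 2.41 to 57.1 ± 1.16 TPM and UQCRC1, a core protein, from 327 ± 29.4 to 244 ± 16.8 TPM, while the small subunit UQCR11 rose from 144 ± 12.6 to 205 ± 38.1 TPM. For complex IV they were 1 up and 3 down of 11, with COX8A going from 712 ± 83.8 to 463 ± 55.1 TPM and COX6C, which rose, from 276 ± 34.6 to 384 ± 10.4 TPM. COX5A fell from 458 ± 12.4 to 364 ± 10.4 TPM and COX4I1 from 1041 ± 52.1 to 813 ± 57.9 TPM. For complex V they were 2 up and 4 down of 17, with the catalytic subunit ATP5F1B going from 1361 ± 56.6 to 1027 ± 11.4 TPM. ATP5MC3, a c-ring subunit, fell from 672 ± 29.4 to 492 ± 24 TPM, while ATP5MK, a small subunit, rose from 495 ± 78.8 to 706 ± 52.8 TPM and ATP5MJ, another, from 232 ± 30 to 301 ± 21.5 TPM. Of the 4 genes of complex II, which has no mitochondrially encoded subunit, 0 rose and 2 fell, SDHA from 118 ± 8.17 to 98.2 ± 2.84 TPM and SDHB from 173 ± 6.31 to 140.0 ± 3.3 TPM. The median log2 changes of these lists were -0.12, -0.26, -0.050, -0.16 and -0.13, beside 0.24 for the 13 mitochondrial protein-coding rows and -0.048 for all genes tested. Across all genes 19% fell and 11.2% rose, so more falls than rises were also the background. Of these named subunits, NDUFS3, NDUFB10, CYC1, UQCRFS1, COX8A and COX6C kept their calls in all 18 alternatives. With median-of-ratios scaling those of NDUFV1, NDUFA8, UQCRC1, COX5A, COX4I1, ATP5MC3, ATP5F1B, ATP5MJ, SDHB and SDHA were lost (adjusted p = 0.076, 0.0983, 0.12, 0.185, 0.22, 0.0859, 0.118, 0.0523, 0.169 and 0.251). Omitting siRRN3 library 2 ended those of UQCRC1, UQCR11, COX4I1, ATP5MK, ATP5MJ, SDHB and SDHA (adjusted p = 0.0568, 0.0817, 0.0509, 0.0516, 0.115, 0.0718 and 0.151). UQCR11, ATP5MJ and SDHA also lost theirs without control library 2 (adjusted p = 0.114, 0.0624 and 0.086) or siRRN3 library 3 (adjusted p = 0.0592, 0.0898 and 0.115), UQCR11 and SDHA without control library 1 (adjusted p = 0.0694 and 0.0802), and SDHA without siRRN3 library 1 (adjusted p = 0.0507). The calls of UQCR11, ATP5MJ and SDHA were further lost with no trend (adjusted p = 0.0556, 0.0716 and 0.0988) and with no filter on low values (adjusted p = 0.0693, 0.0723 and 0.0532), and that of SDHA with TPM rescaled without MT- rows (adjusted p = 0.11).

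**Figure D5:**
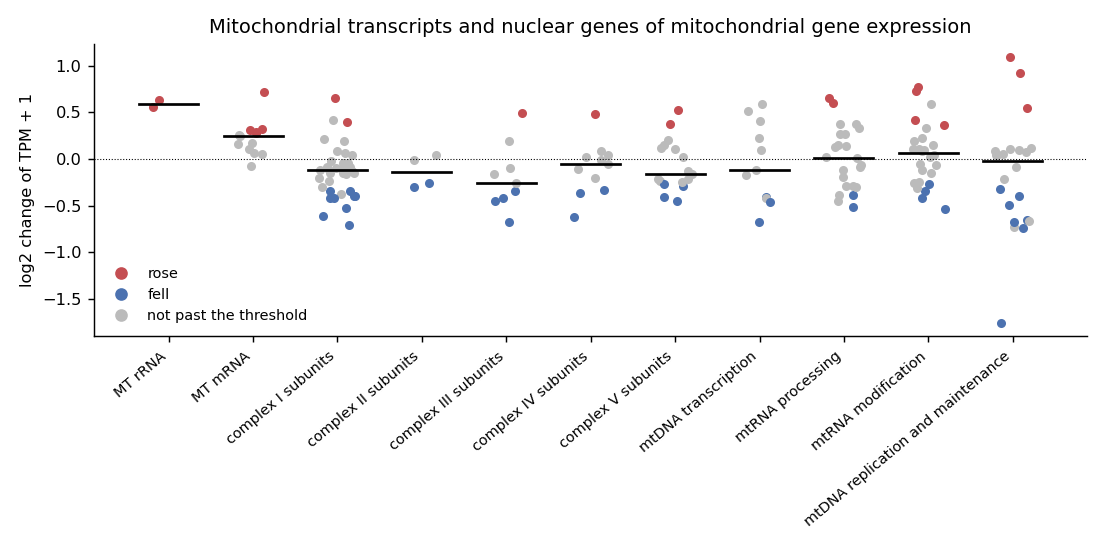
Log2 change of TPM + 1 (y axis) for each tested gene of the mitochondrial rRNA and mRNA rows and of 9 lists of nuclear genes (x axis), coloured by whether the gene passed an adjusted p of 0.05, with the median of each list as a line. The mitochondrial rRNA and mRNA medians are 0.59 and 0.24, and those of the 5 lists of respiratory subunits lie between -0.26 and -0.050.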

How the data were processed

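RNA was sequenced from 6 HCT116 libraries, 3 per siRNA. The deposited table gives 1 TPM value per gene symbol and library, computed by the authors. GRCh38, Salmon and STAR are listed in the submitters' processing notes, with no roles. The annotation, strand setting and filters were not stated. Per the labels' protocols, Ribo-Zero depleted rRNA before random-hexamer priming, although the molecule is labelled poly(A) RNA. Recovery of mitochondrial rRNAs and tRNAs depends on such steps, whose part was not tested. Sequencing depth cannot be read from TPM and is unknown. Library sums were 991305 to 992042 TPM.

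Genes with a mean of at least 1 TPM (12157) were tested on log2(TPM + 1), a scale that understates changes of low genes, with limma 3.58.1 in R 4.3.3: group alone, eBayes with an intensity trend, Benjamini-Hochberg adjustment over all genes. The same fit was repeated after scaling libraries to equal summed MT- TPM. Permutation tests of shares were exact and two-sided (scipy 1.17.1). The labels do not say how cultures were separated, so p-values measure the spread between these samples. GENCODE release 29 (GRCh38) gave coordinates, sequences and GC content by gene symbol, and GC was known for 11643 of 12157 genes (95.8%). Copies were aligned with Biopython 1.88. The fit was also run on simulated data with independent noise and few changed genes, which does not test whether the calls hold in these data. Members, gene lists and tests were chosen with earlier results of these data known. Named were all MT- rows, RRN3, POLRMT, TFAM, TFB2M, TEFM, LRPPRC, up to 4 genes past the threshold per list with the smallest adjusted p, and nuclear copies of at least 1 TPM. Alternatives were other pseudocounts, filters, scalings and moderation, removal of GC trends, a replicate block and leaving out libraries.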

Additional observations from a re-analysis of the deposited data

How the results depend on the processing

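MT-RNR1, MT-RNR2, MT-ND1 and MT-TA kept their direction and their call in all 18 alternatives of the TPM fit, with log2 changes of 0.49 to 0.63, 0.30 to 0.71, 0.65 to 0.79 and 0.54 to 0.80. The number of rows that rose, 10 as reported, was 5 with no trend, 4 with no filter on low values, 20 without both libraries numbered 1 and 4 to 13 when 1 library was left out, the fewest without RRN3 siRNA replicate 2. The number that fell, 0 as reported, was 1 without both libraries numbered 1 and 0 to 1 with 1 library left out. The calls over all genes moved too. Of 12157 genes, 1367 rose and 2312 fell as reported, 1281 and 2272 with no trend, and 1718 and 3003 without both libraries numbered 1. With no filter they were 1206 and 2157 of 21876. With 1 library left out 785 to 1268 rose and 1445 to 2977 fell, the fewest also without RRN3 siRNA replicate 2. Of the shares, 5 rose and 2 fell as reported; 3 rose with no filter and 13 without both libraries numbered 1, and 0 fell with no trend, 0 with no filter and 1 after scaling to the protein-coding rows. With 1 library left out, 3 to 7 shares rose and 0 to 2 fell. Over all 12157 genes scaled the same way, 631 rose and 2926 fell as reported, and 592 and 2827 with no trend. The counts were 1124 and 4667 without both libraries numbered 1, and 592 and 2695 of 21876 with no filter. Scaling to the protein-coding rows gave 668 and 2702, and leaving out 1 library 375 to 631 and 1683 to 4267. The cause of these differences was not tested.

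With a replicate block 16 rows rose and 1 fell, and 9 shares rose and 3 fell. The block also gave more calls over all 12157 genes, with 2295 higher and 3251 lower. After scaling to the mitochondrial sum these were 1423 and 4961. The numbers do not pair the libraries by the labels, and deviations of same-numbered libraries correlated over genes at 0.419, 0.0954 and 0.159. Library 2 of neither group correlated best with its own number, so the numbers were not taken as pairs. Control library 1 correlated with siRRN3 libraries 2 and 3 at -0.198 and -0.338. For siRRN3 library 1 the values with control libraries 2 and 3 were -0.229 and -0.208. Deviations are from the group mean, so these values are not independent of each other. Why the libraries numbered 1 deviated together was not tested.

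The log2 ratio of the protein-coding sum was 0.15 as reported and 0.23 with median-of-ratios scaling. That of the rRNA sum was 0.62, 0.69 with median-of-ratios scaling and 0.68 with TPM rescaled without MT- rows. Leaving out 1 library gave 0.11 to 0.19 and 0.60 to 0.63, with 0.43 to 0.61 for the tRNA sum, and 0.878 to 1.14 percentage points for the rise of the rRNA share.

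Directions turned for these rows, of which MT-CYB alone had a call. Quantile normalization gave log2 changes of -0.050 for MT-CYB, -0.045 for MT-CO1, -0.058 for MT-ND4, -0.040 for MT-ND4L, 0.025 for MTCO2P12 and 0.023 for MTCO3P12. Removal of the GC trend gave -0.0116 for MT-CO3, and median-of-ratios scaling 0.00756 for MT-TF. Scaling to protein-coding rows gave 0.0146 for the share of MT-ATP8 and 0.00589 for that of MT-CO1. Without both libraries numbered 1, MT-TF was at 0.25 (0.0723 for its share), MT-TQ at 0.45, MT-TW at 0.91 and MTCO2P12 at 0.012. Over fits that leave out 1 library the ranges that crossed 0 were MT-TF -0.44 to 0.26, MT-TV -0.33 to 0.31, MT-TQ -0.76 to 0.27, MT-TW -1.76 to 1.09, LRPPRC -0.017 to 0.61, MTATP8P1 -0.19 to 0.97, MTATP8P2 -0.044 to 0.99, MTCO2P12 -0.15 to 0.021, MTCO3P12 -0.19 to 0.070, MTND2P28 -0.063 to 0.18, MT-TF (share) -0.65 to 0.054, MT-CO1 (share) -0.078 to 0.018, MT-ATP8 (share) -0.054 to 0.011, MT-TS2 (share) -0.027 to 0.64 and MT-TE (share) -0.045 to 0.36. Depth is unknown, and tRNA rows of a few steps are coarse measurements.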
